A study of Homo sapiens with 12 samples.

Results

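Control cells of a SETDB1 depletion experiment carry RNA from many kinds of repeat, and these libraries show how much of each kind there was, on which strand, and how far it drifted between the collection days. THP-1 is an established human acute myeloid leukaemia line. The controls are THP-1 cells transduced with a non-targeting single guide RNA (sgRNA), put under puromycin at 1 µg/ml from 48 h after transduction and collected at day 4 or day 7, with 3 libraries a day. These 6 libraries of 12 were chosen by their titles, and the other 6 are from cells with SETDB1 sgRNA 9 at the same days. All 12 received an sgRNA and puromycin, so none of them is untreated; the number of guides or clones behind the non-targeting label was not stated in the labels. Each library was made from 100 ng of total RNA with a stranded kit, and replicates are not said to come from separate cultures, so p-values measure the spread between these libraries, which may be technical.

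Repeats are copies of sequences that once spread through the genome or that stand in long arrays. LINE-1 (L1) elements are retrotransposons that copy themselves through RNA; the full-length form has a 5′ region with a promoter, a pair of open reading frames of which the second (ORF2) encodes the reverse transcriptase, and a 3′ end. Names with L1P belong to primate L1 families and names with L1M to older mammalian ones. Endogenous retroviruses are remnants of infections of the germ line, with an internal part between long terminal repeats (LTRs) that act as promoters; class I includes HERV3, class II HERVK, and class III the ERVL elements and the mammalian apparent LTR retrotransposons (MaLR: THE1, MST and MLT1). Satellites such as ALR, the alpha satellite of centromeres, and SST1 form tandem arrays. SETDB1 is a histone methyltransferase known to silence many of these, and the study asked whether its loss leads to transcription of both strands of such elements, so non-targeting cells give the level and strand balance against which that is read.

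Counts of 45 repeat elements were given for a plus and a minus strand, in a table for each day with the same elements, and each strand of an element is called a feature here. The labels do not say what plus and minus refer to, so neither is called sense. Counts of the table summed to between 27705 and 35293 a library at day 4 and to between 27388 and 42445 at day 7, and the depth of the whole libraries is not known. In the pairs of replicates at day 4, replicate 2 stood apart: it differed from replicates 1 and 3 with a chi-square over its degrees of freedom of 9.57 and 10.7, against 1.75 between replicates 1 and 3. The called changes, the shift of the whole table, the class strand shares and the counts of features by direction are therefore also given without it. Because each day has a table of its own, the day and anything particular to the counting of that table cannot be told apart.

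L1 models took most of the repeat counts in control cells. The 19 L1 models held 85.2% of the 196148 counts of the 6 libraries, with 83.7% in the lowest and 86.5% in the highest library. The 20 LTR and retroviral models held 14.1%, the 5 satellites 0.730%, and CR1_Mam, a remnant of the CR1 LINE family, had 8 counts. Of those 8, 0 lay on the plus strand. With 3 counts as the limit that a count of 0 allows, its plus share could be up to 37.5%. Element lengths and copy numbers are not in the tables, so these shares say where the reads fell, not which element is expressed most per length. Models of related families share sequence, so how reads were divided among them by the authors' counting adds uncertainty to each.

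L1P1_orf2, the ORF2 model of a primate L1, came first with 34.2, 35.2 and 32.5% of the counts of its library at day 4 (replicates 1 to 3) and 34.0, 32.3 and 30.7% at day 7. L1PA5_3end, the 3′ end model of the L1PA5 family, followed with 27.7, 22.9 and 28.2% at day 4 and 28.1, 26.7 and 28.2% at day 7. The day 4 replicate 2 value of 22.9% was the lowest of the 6, and the other 5 lay between 26.7 and 28.2%. Together both models held 60.3% of all counts, and the 10 elements with the most counts held 90.5%.

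The remaining 8 of those 10 were mostly L1 ends. L1PA12_3end held 5.95% ± 0.50 at day 4 and 6.66% ± 0.13 at day 7 (SD, n = 3), and L1PA10_3end held 4.87% ± 0.07 and 5.11% ± 0.19. The 5′ end model L1P1_5end, which lies at the promoter end of the element, held 5.71, 8.14 and 5.48% at day 4 and 4.99, 5.84 and 5.33% at day 7, so the highest value was again day 4 replicate 2. The older 3′ end model L1MA5_3end held 2.11% ± 0.36 and 2.14% ± 0.12, and L1PA10_5end 1.77% ± 0.17 and 1.60% ± 0.056 (SD, n = 3). Outside L1, the MaLR LTR THE1C held 5.58% ± 0.48 and 5.79% ± 0.33, MSTB1, of the same group, 1.75% ± 0.26 and 1.75% ± 0.16, and HUERS-P3b, a class I retrovirus, 1.79% ± 0.22 and 1.94% ± 0.37. Among these 10, the 3 libraries of a day stood apart from those of the other day for L1PA12_3end, above at day 7, and L1PA10_5end, below at day 7; over the 43 elements with counts 7 did, or 16.3%, with 3 above (6.98%) and 4 below (9.3%).

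**Figure D1:**
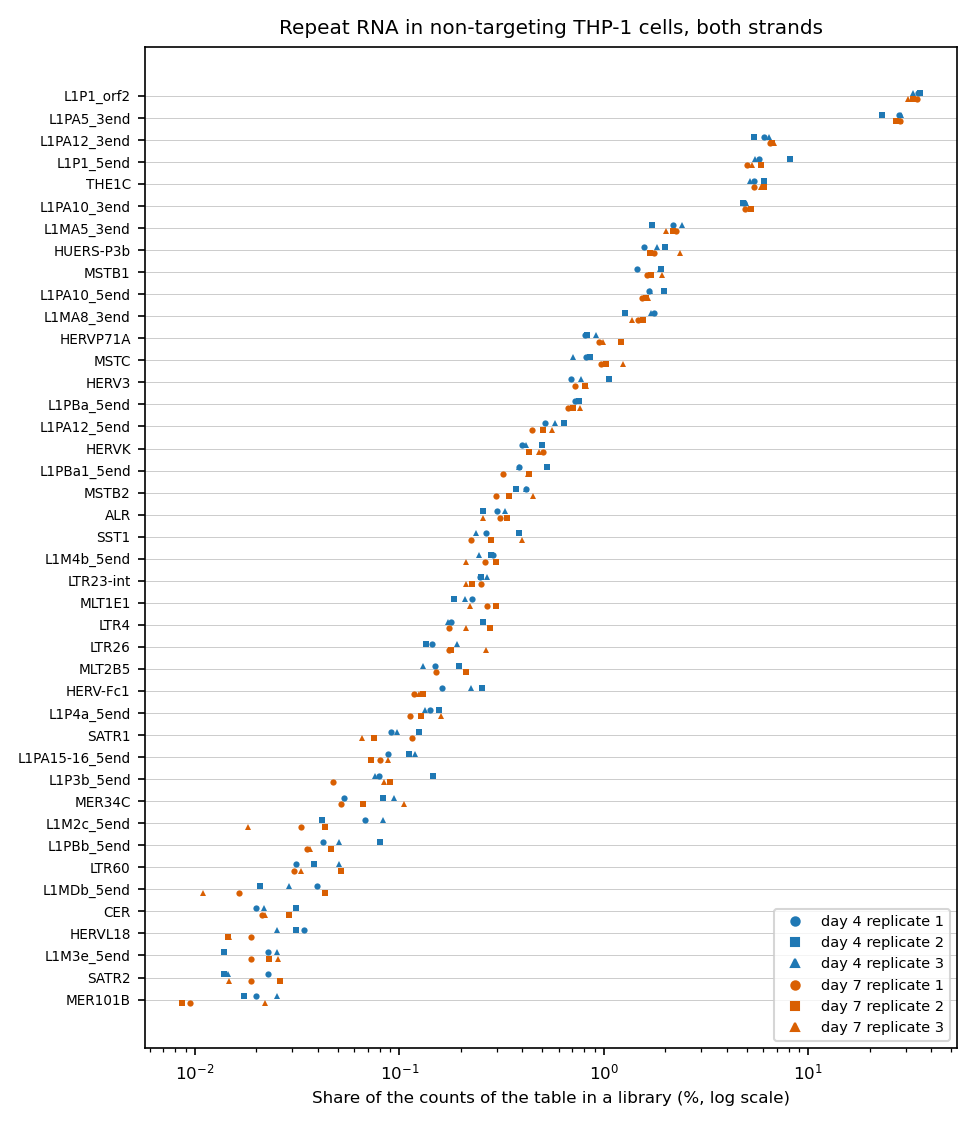
Share of the counts of the table that fell on an element in each non-targeting library, both strands summed, on a log axis in percent. Blue points are the 3 day 4 libraries and orange points the 3 day 7 libraries, with elements ordered by their counts over all 6 and those with fewer than 10 counts left out; L1P1_orf2 and L1PA5_3end lie at the top, at 22.9 to 35.2%, and most elements have both colours side by side.

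The order of the elements changed little with time. Across the 33 elements with at least 100 counts over the 6 libraries, the mean shares of the days correlated at 0.995 (Pearson, log10 scale) and 0.990 (Spearman), given as a description because the points share libraries. HERVK, the class II member, held 0.44% ± 0.05 at day 4 and 0.47% ± 0.04 at day 7. LTR4, the LTR that belongs to HERV3, was the most counted of the other LTR and MER elements with 413 counts, and HERV3 itself had 1571, and their ratio ranged from 2.91 to 4.44 over the libraries. ALR led the satellites with 589 counts and SST1 followed with 571; ALR held 0.30% ± 0.04 on each day (SD, n = 3).

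Some elements were barely seen. LTR55 and LTR81C had 0 counts on both strands in all 6 libraries, and with 3 counts as the limit that a count of 0 allows, each could still have a few reads at this depth. Another 10 elements had fewer than 100 counts each: L1M2c_5end, L1PBb_5end, LTR60, L1MDb_5end, CER, HERVL18, L1M3e_5end, SATR2, MER101B and CR1_Mam. The 12 elements under 100 counts held 526 counts, 0.268% of the total. Of the 90 features, 70 from 39 elements passed the filter on counts and were tested, and the 20 left out held 0.110% of the control counts. The filter used all 12 libraries, so a feature could also pass through its counts in the SETDB1 sgRNA 9 libraries. HERVL18 plus strand was tested with 23 control counts and CER plus strand with 31, while L1M3e_5end plus strand, with 37, was not.

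Most repeat RNA lay on the minus strand. Of the counts of the 6 libraries 142676 were minus and 53472 plus. The minus strand share of all counts was 69.7, 73.0 and 68.8% at day 4 and 75.3, 74.8 and 73.8% at day 7, so every day 7 library lay above every day 4 library. The strands of each element were compared with a library block in edgeR over 39 elements, with both days averaged. The minus strand was higher for 26 elements and the plus strand for 8 (edgeR quasi-likelihood test, adjusted p under 0.05), which is 87.2% of those tested, 66.7% for minus and 20.5% for plus. Because the table as a whole leans to the minus strand, a second fit scaled each strand to its own total adjusted by a TMM factor. In it 17 elements leaned to minus and 19 to plus, relative to that scaling. L1PA5_3end did not pass in that fit (log2 0.088; edgeR adjusted p = 0.0612).

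Strand calls are given by class of repeat, which was not itself tested. All 5 L1 3′ end models and the ORF2 model were higher on the minus strand, as were 8 of the 12 tested L1 5′ end models, with 1 higher on plus (L1M2c_5end) and 3 that did not pass. The plus call of L1M2c_5end was near the threshold (edgeR adjusted p = 0.0489). It rests on 93 counts, with minus shares from 16.7 to 50% in the libraries. L1P1_orf2 had a minus strand share of 80.7, 85.9 and 80.1% at day 4 and 88.3, 87.8 and 87.5% at day 7, a log2 ratio of minus to plus of 2.54 ± 0.10 (SE). The 3′ end models lay lower: 71.1% of the pooled counts for L1PA12_3end, 69.9% for L1PA10_3end, 67.2% for L1PA5_3end, 73.1% for L1MA5_3end and 57.4% for L1MA8_3end. Among 5′ end models L1P1_5end had 63.1%, L1PA10_5end 69.9% and L1PA12_5end 53.6%, and the last did not pass (edgeR, adjusted p = 0.104). L1PA12 therefore had a 3′ end that leaned to minus and a 5′ end near balance in the same cells, while the ends of L1PA10 had nearly the same share. These ends were not tested against each other.

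Retroviral and LTR elements held both extremes. Among elements with at least 100 counts, the highest minus strand shares were those of LTR4 (98.5% of 413 counts, 95% exact interval 96.9 to 99.5), HERVP71A (97.8% of 1868, 97.0 to 98.4), LTR26 (94.9% of 352, 92.0 to 96.9), LTR23-int (90.1% of 475, 87.1 to 92.6) and HERV3 (89.4% of 1571, 87.8 to 90.9). HERVP71A, the internal part of a class I retrovirus, had a minus strand share between 96.7 and 98.8% in the 6 libraries. LTR4 had 0, 4 and 1 plus strand counts at day 4 and 0, 1 and 0 at day 7, so it was almost single-stranded in each library. Intervals here are Clopper-Pearson and cover counting error only.

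HERV-Fc1, another class I retrovirus, was the reverse: all of its 321 counts lay on the plus strand, and 0 on the minus, which allows a minus share of up to 0.935%. The next lowest shares were 26.4% for MSTB2 (738 counts, 23.3 to 29.8), 28.7% for ALR (589 counts, 25.1 to 32.5), 39.9% for the satellite SATR1 (188 counts, 32.8 to 47.3) and 41.4% for the MaLR LTR MLT1E1 (469 counts, 36.9 to 46.0). MSTB2 stood between 21.8 and 30.6% in the 6 libraries and its relative MSTB1 between 53.7 and 63.1%, so these MaLR models did not overlap. For SATR1 the plus call was lost without any of 3 single libraries (day 4 replicate 3, day 7 replicate 1 or 2), and for MLT1E1 without day 4 replicate 1 or day 7 replicate 1. LTR60, at 76 counts, had 6.58% on the minus strand (2.17 to 14.7).

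Class III was mixed: 4 of its 7 elements were higher on minus (THE1C, MSTB1, MSTC and MLT2B5), 2 on plus (MSTB2 and MLT1E1), and HERVL18, an ERVL model with 45 counts, did not pass. MSTC, a MaLR LTR, had 82.7% of its counts on minus and THE1C 60.4%. Satellites divided as well, with SST1 at 75.7% minus (71.1 to 81.8% in the libraries) and ALR, SATR1 and CER higher on plus. CER had 47 counts, with minus shares of 28.6, 11.1 and 0% at day 4 and 55.6, 50 and 50% at day 7. Its call averages both days (edgeR adjusted p = 0.0383), and at day 7 its strands were near balance. HUERS-P3b was balanced: its 3606 counts were 51.3% minus, its libraries ranged from 45.3 to 56.4%, and the test did not pass (log2 ratio 0.07 ± 0.08, SE; edgeR adjusted p = 0.464). HERVK had 81.6, 83.2 and 70.4% on minus at day 4 and 83.6, 83.9 and 84.8% at day 7.

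**Figure D2:**
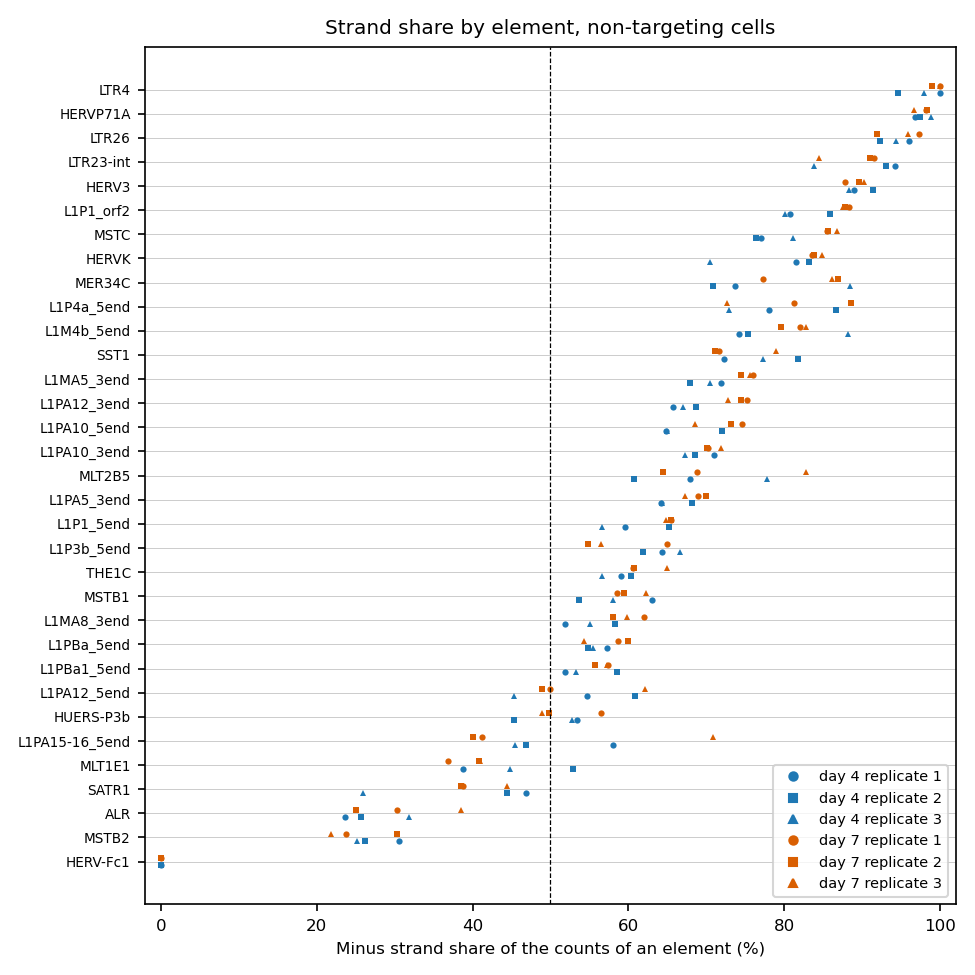
Minus strand share of the counts of each element in percent, for the 33 elements with at least 100 counts over the 6 non-targeting libraries. Blue points are day 4 and orange points day 7, a point a library, and the dashed line marks 50%; LTR4 and HERVP71A lie above 94% in every library, and HERV-Fc1 at 0 in every library.

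The order of elements by strand share changed little between the days. Over the same 33 elements the mean minus strand shares of the days correlated at 0.989 (Pearson) and 0.984 (Spearman), as a description. The means of the days differed by a median of 2.22 percentage points, 25 elements differed by less than 5 points, and the widest difference was 7.81 points, for MSTC.

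Between day 4 and day 7 the table moved towards the minus strand. Its minus share averaged 70.5% ± 2.2 at day 4 and 74.6% ± 0.7 at day 7 (SD, n = 3), a difference of 4.11 points, or 5.37 without day 4 replicate 2. In unscaled counts the plus strand total went from 27091 to 26381 over the 3 libraries of a day, and the minus strand total from 64670 to 78006. Without L1P1_orf2, an alternative added once the data had been seen, the shares were 64.5% ± 1.4 and 68.3% ± 0.45, and without L1PA5_3end as well 63.8% ± 1.1 and 68.0% ± 0.33 (SD, n = 3). By class, the days did not overlap for L1 3′ ends (66.0% ± 1.7 to 69.8% ± 0.88), class III (58.7% ± 1.2 to 62.5% ± 2.1), the other LTR and MER elements (84.3% ± 1.2 to 87.6% ± 1.4), the ORF2 model and HERVK, while satellites, class I and L1 5′ ends overlapped (SD, n = 3). Without day 4 replicate 2, L1 5′ ends did not overlap either, and the others were as before. Class shares pool elements of unlike strand share, so they also move with the mix of elements. Among the other LTR and MER elements, no single element kept the days apart in its minus share. Over the whole table, the SETDB1 sgRNA 9 libraries averaged 71.0% ± 4.3 at day 4 and 69.9% ± 1.4 at day 7 (SD, n = 3), with overlap between the days. Their day 4 values spanned 66.2 to 74.6%, wider than the whole gap in the controls.

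For the share of single elements, 3 of 39 passed, all towards minus and 0 towards plus, a background of 7.69% (edgeR, strand by group terms with a library block), and 5 had an unadjusted p under 0.05. MSTC had a minus share of 77.0, 76.3 and 81.1% at day 4 and 85.5, 85.6 and 86.8% at day 7, a rise of 0.79 ± 0.22 in log2 odds (SE, adjusted p = 0.0245 in edgeR). L1P1_orf2, whose shares are given above, rose by 0.63 ± 0.19 in log2 odds (SE, adjusted p = 0.0245). L1PA12_3end went from 65.7, 68.7 and 67.0% to 75.2, 74.5 and 72.8%, by 0.50 ± 0.15 (SE, adjusted p = 0.0251). In each of the 3 the libraries of the days did not overlap. For L1P1_orf2 day 4 replicate 2, at 85.9%, lay nearer to the day 7 libraries than to the other day 4 ones, and without it the change was 0.82 and still passed. The same held for L1PA12_3end at 0.55, but not for MSTC at 0.71 (edgeR adjusted p = 0.0749).

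Among the other 35 tested elements with counts on both strands, 22 had a higher and 13 a lower fitted minus share at day 7, none of which passed. Over all 38 the median was 0.12 in log2 odds, or 0.16 without day 4 replicate 2, when 28 lay above and 10 below 0. The libraries did not overlap for 7 elements, 17.9% of 39, all with day 7 above: besides the 3 called ones these were THE1C, L1MA5_3end, HERVK and CER. For THE1C and HERVK the gap was narrow. Their highest day 4 shares were 60.3 and 83.2%, and their lowest day 7 shares 60.6 and 83.6%. Without day 4 replicate 2, where 2 libraries face 3, 12 elements lay above and 1 below. L1MA5_3end went from 70.1% ± 2.0 to 75.4% ± 0.8 (SD, n = 3; log2 odds 0.38 ± 0.17, SE; edgeR adjusted p = 0.192). CER, a satellite, had 47 counts in all, with 2, 1 and 0 on the minus strand at day 4 and 5, 5 and 3 at day 7 (log2 odds 2.67 ± 1.11, SE; edgeR adjusted p = 0.185). The largest falls, L1P3b_5end (-0.34 ± 0.54), L1PBb_5end (-0.38 ± 0.69) and LTR60 (-0.71 ± 1.43), were within their errors, and that of LTR60 turned to 0.32 without day 4 replicate 1. LTR4, at 2.34 ± 1.23, rests on the 6 plus strand counts listed above.

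None of the 3 calls is firm against the choice of library or model. With limma on the log2 ratio of the strands 0 elements passed, and without single libraries between 0 and 3 did. L1P1_orf2 and L1PA12_3end were lost without day 4 replicate 1 or 3 or day 7 replicate 1 or 2, and MSTC without day 4 replicate 1 or 2 or day 7 replicate 1 or 2, while the direction of the 3 was towards minus in every alternative run. With each strand scaled to its own total adjusted by a TMM factor, MSTC did not pass (log2 odds 0.75, edgeR adjusted p = 0.0867) and the other 2 did.

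**Figure D3:**
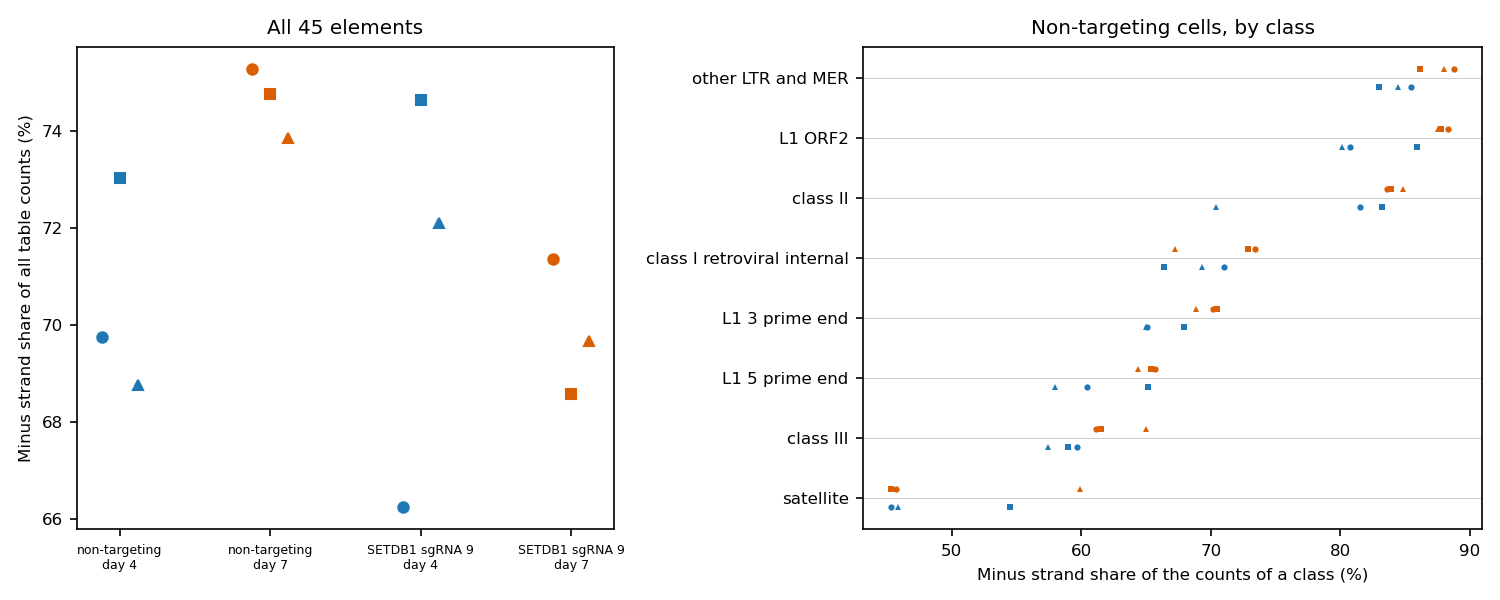
Left, minus strand share of all counts of the table in percent for each of the 12 libraries, by group; right, the same share within each repeat class for the 6 non-targeting libraries, with the single element of the CR1 class left out. Blue is day 4, orange is day 7 and symbols mark the replicate number; the axes do not start at 0, and the 3 non-targeting day 7 libraries, at 73.8 to 75.3%, lie above the day 4 ones at 68.8 to 73.0%.

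For the level of single features, day 7 was set against day 4 in CPM, which here are counts per 1000000 of the TMM-scaled total of the table, so a change is one relative to the other elements. In bulk RNA, a change in the number of cells that make an RNA and one in its amount per cell cannot be told apart. Of 70 features 2 were higher and 2 lower (edgeR quasi-likelihood test, Benjamini-Hochberg adjusted over 70), a background of 5.71%, or 2.86% in each direction, and 9 had an unadjusted p under 0.05. With table totals in place of TMM factors the split was 1 higher and 2 lower, with DESeq2 size factors 2 and 1, in DESeq2 itself 3 and 1, with no filter on low counts 4 and 0, with L1P1_orf2 left out 5 and 0, and in the control libraries alone 1 and 2. In unscaled counts 0 features passed, as was the case without day 4 replicate 3 or day 7 replicate 3, and 2 passed without day 4 replicate 2. The 4 calls had the same sign in every alternative in which they were tested.

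MSTC minus strand was measured at 6384, 6111 and 5356 CPM at day 4 and at 9102, 8921 and 10500 CPM at day 7. All day 7 libraries lay above all day 4 ones, and the change was 1.59-fold, or 0.67 ± 0.15 on the log2 scale (SE, adjusted p = 0.00867 in edgeR). Its plus strand stood at 1683 ± 378 and 1548 ± 47.4 CPM (SD, n = 3) and did not pass (log2 -0.13 ± 0.20, SE; edgeR adjusted p = 0.913). The call was lost without day 4 replicate 3 (0.58) or day 7 replicate 3 (0.57), and held without day 4 replicate 2 (0.65).

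L1PA12_3end minus strand had 40612, 34867 and 39916 CPM at day 4 and 53687, 50581 and 47922 CPM at day 7. Again the days did not overlap, with a 1.32-fold rise (log2 0.40 ± 0.12, SE; edgeR adjusted p = 0.0422). Its plus strand fitted at -0.10 ± 0.13 (adjusted p = 0.843 in edgeR). The 3′ end of L1PA12 had 11.8, 8.45 and 11.1 times the counts of its 5′ end at day 4 and 14.7, 13.3 and 12.1 times at day 7, and for L1PA10 the ratio was 2.93, 2.44 and 2.93, then 3.18, 3.23 and 3.17. Both ratios lay higher in all day 7 libraries, with the lowest value in day 4 replicate 2. Such ratios were not tested, and that of L1PA12 takes in the counts of its called minus strand. The counts of L1P1_orf2 over those of L1P1_5end, at 5.99, 4.33 and 5.93 and then 6.81, 5.53 and 5.77, overlapped between the days. The minus strand call of L1PA12_3end was lost without any single one of the 6 control libraries, and without day 4 replicate 2 the change was 0.29. It was also lost with table totals, with no scaling, in the control libraries alone and with the replicate number as a block.

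L1P1_orf2 plus strand had 67099, 46565 and 60261 CPM at day 4 and 43501, 40158 and 37245 CPM at day 7. Day 7 was lower by 1.44-fold (log2 -0.52 ± 0.14, SE; edgeR adjusted p = 0.0271), and day 4 replicate 2 lay closest to the day 7 libraries. Without that library the fall was -0.70 on the log2 scale and passed, whereas it was lost without any of the other 5 control libraries. The plus strand call of L1P1_orf2 was also lost with no filter and with no scaling. Its minus strand, with over 5 times the counts, did not pass (0.12 ± 0.13, SE; edgeR adjusted p = 0.774).

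HERV-Fc1 plus strand, the only strand on which this retrovirus had counts, went from 57, 73 and 62 counts to 50, 45 and 34, or from 1646, 2385 and 2088 CPM to 1289, 1325 and 1206 CPM. All day 7 libraries were lower, by 1.59-fold (log2 -0.67 ± 0.20, SE; edgeR adjusted p = 0.0422). This call was lost without any control library but day 4 replicate 1, and without day 4 replicate 2 the change was -0.58. It was also lost with DESeq2 size factors (-0.62; edgeR adjusted p = 0.0768), in DESeq2, with no filter, with L1P1_orf2 left out and with no scaling. As an element with both strands summed it did not pass (-0.77 ± 0.22, SE, edgeR adjusted p = 0.111). With 0 minus strand counts in the controls, that fit rests on the same control counts and is not a separate check. It differs in its scaling factors and in the number of tests adjusted for.

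**Figure D4:**
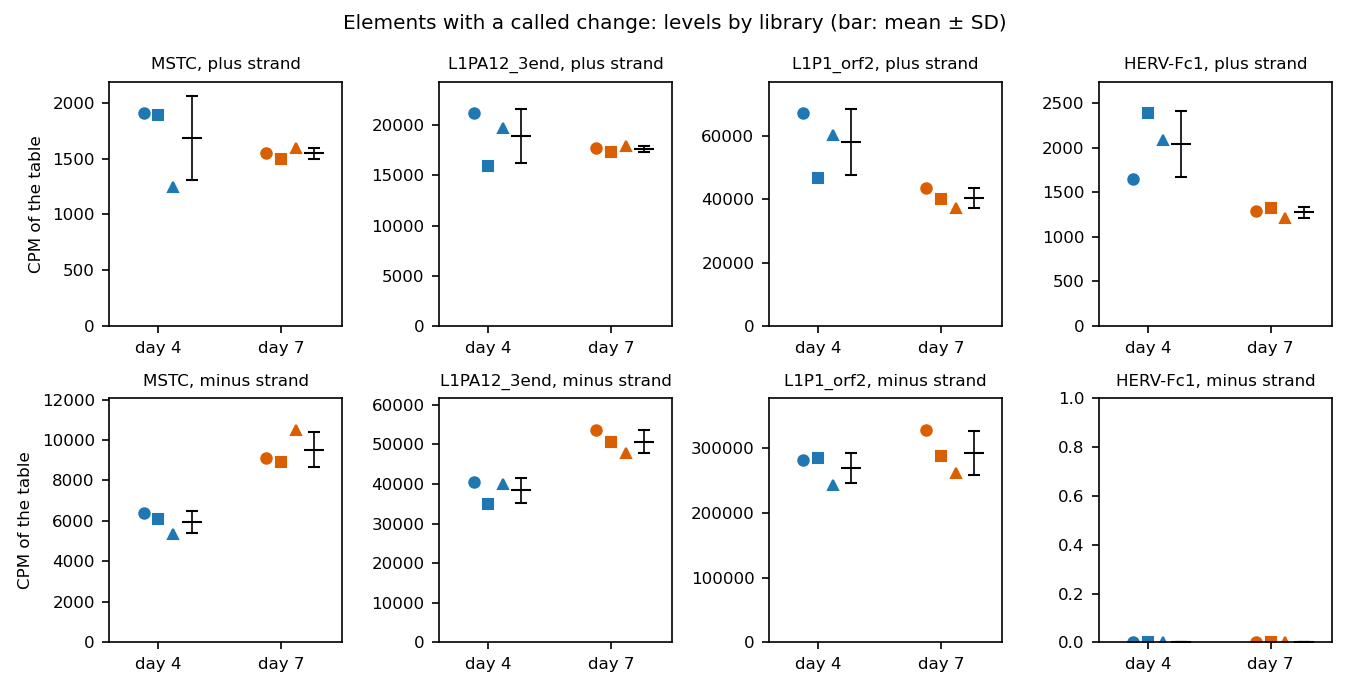
Levels of the 4 elements with a called feature in the 6 non-targeting libraries, in CPM of the table, plus strand above and minus strand below. Blue points are day 4, orange points day 7, symbols mark the replicate number and black bars give the mean ± SD of 3 libraries; MSTC and L1PA12_3end differ on minus, L1P1_orf2 and HERV-Fc1 on plus, and HERV-Fc1 is at 0 on minus throughout.

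Other features kept the days apart without passing. In all 13 of 70 did, 18.6%: 8 with day 7 above (11.4%), every one a minus strand, and 5 with day 7 below (7.14%), every one a plus strand. Without day 4 replicate 2, where 2 libraries face 3, it was 24: 12 minus and 2 plus strands above, 9 plus strands and 1 minus strand below. Those above, besides MSTC and L1PA12_3end, included the minus strands of HERVP71A (8014 ± 455 to 10515 ± 1450 CPM, SD, n = 3; log2 0.39 ± 0.14, SE; edgeR adjusted p = 0.127), L1PA5_3end (0.24 ± 0.12, adjusted p = 0.336) and MLT2B5 (0.43 ± 0.21, adjusted p = 0.336). The remaining 3, outside the naming rule and picked here with their values in view, were L1PA10_3end (0.19 ± 0.12), THE1C (0.22 ± 0.12) and MSTB1 (0.15 ± 0.13; log2, SE). Those below, besides L1P1_orf2 and HERV-Fc1, were the plus strands of 5′ end models: L1P1_5end (24112 ± 2288 to 19191 ± 1168 CPM, SD, n = 3; log2 -0.33 ± 0.12, SE; edgeR adjusted p = 0.127), L1PA10_5end (-0.28 ± 0.15, adjusted p = 0.381) and L1M2c_5end (-1.04 ± 0.45, adjusted p = 0.212). L1M2c_5end had 13, 10 and 16 plus strand counts at day 4 and 7, 10 and 3 at day 7, so its value rests on few reads.

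Fitted changes leaned down on the plus strand and up on the minus strand. Of 35 tested plus strand features 22 had a fitted change below 0, with a median of -0.12, and of 35 minus strand features 22 had one above 0, with a median of 0.12; the median of all 70 was 0.01. These counts depend on the scaling: with table totals 29 plus strand features were below and 18 minus strand features above 0, and with DESeq2 size factors 20 and 25. Unscaled, 19 of 36 plus strand features were below 0, with a median of -0.023. On the minus strand 27 of 35 were then above 0, with a median of 0.20. In the main fit without day 4 replicate 2 the counts were 23 and 27. Among the 31 elements with both strands tested, the minus strand change lay above the plus strand change in 21.

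Of the L1 5′ end models, all 11 of their tested plus strand features and 9 of 12 minus strand features were below 0, with a median of -0.17 against 0.01 for all features, yet 0 passed in either direction. With DESeq2 size factors 10 and 7 were below 0, with table totals 11 and 12, and unscaled 9 and 6. Without day 4 replicate 2, 9 of 11 and 5 of 12 were below 0 and the median was -0.090, so the minus strands then lay more often above 0. The share of the 5′ end models in the table overlapped between the days, at 9.75, 12.9 and 9.64% at day 4 and 8.56, 9.85 and 9.37% at day 7. Against 5.71% called and 18.6% without overlap over all features, L1 3′ end models had 1 of 10 features called (L1PA12_3end, higher), 3 without overlap, all above, and a median of 0.10, with all 5 minus strands above 0 under each of the scalings.

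Class III had 1 of 13 features called (MSTC, higher), 4 with separate days, all above (11.4% over all features), and a median of 0.15. Class I internal models had 1 of 9 called (HERV-Fc1, lower; 2.86% over all features), with a median of 0.09. From single calls in classes of these sizes nothing is read about a class. The 7 tested satellite features had 0 calls and a median of 0.02: SST1 moved by 0.27 ± 0.27 on plus and 0.02 ± 0.21 on minus, ALR by 0.07 ± 0.24 and 0.30 ± 0.25 (log2, SE). HERVK moved by -0.19 ± 0.24 on plus and 0.30 ± 0.16 on minus, and the 4 tested features of the other LTR and MER elements had 0 calls and a median of 0.18. With table totals the medians of class I and of the satellites lay below 0, at -0.0027 and -0.062. With strands summed, 0 of 42 elements passed (edgeR, smallest adjusted p = 0.111), with 4 at an unadjusted p under 0.05, and DESeq2 called 1. The fit of the 6 control libraries alone called 2.

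**Figure D5:**
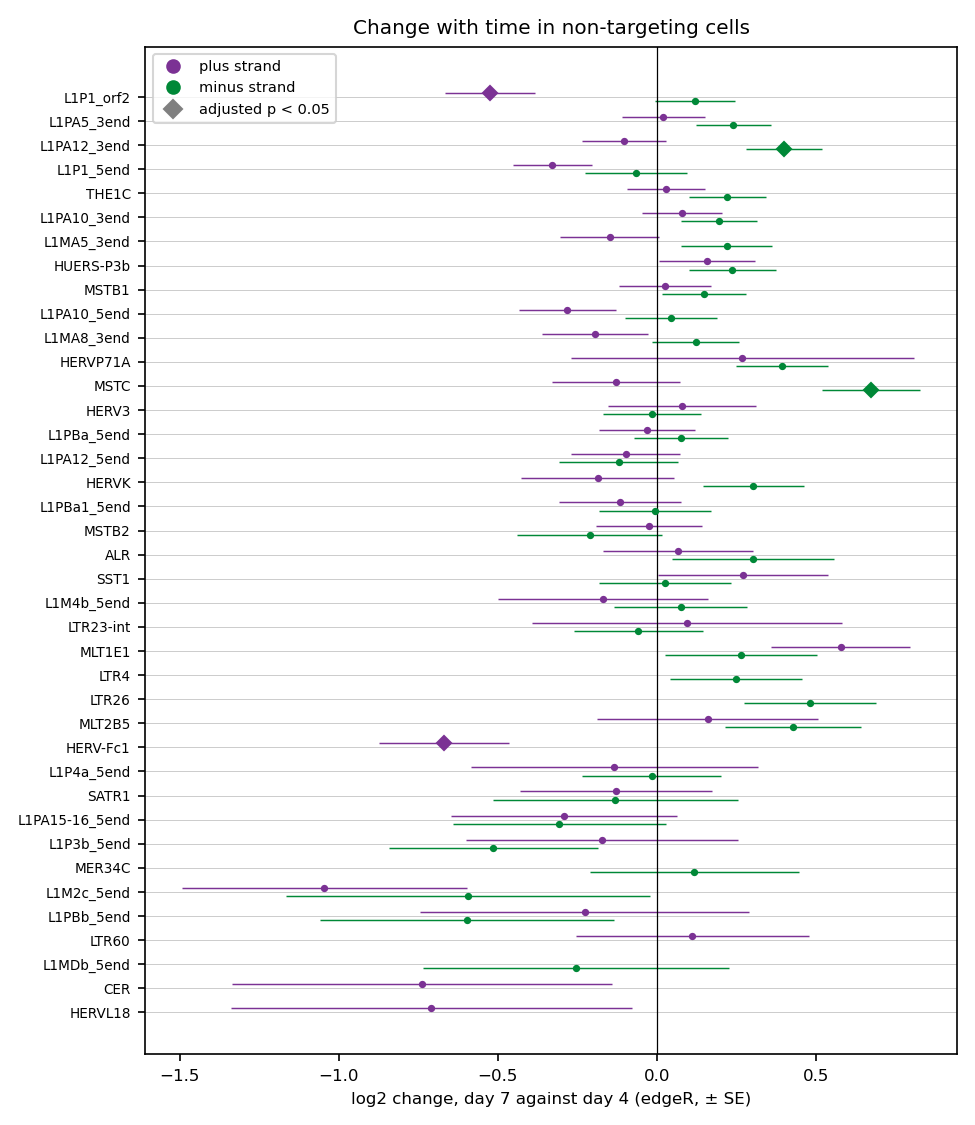
Fitted log2 change from day 4 to day 7 in non-targeting cells for each of the 70 tested features, ordered by the counts of the element. Purple marks the plus strand and green the minus strand, bars are ± SE from edgeR and diamonds mark the 4 features that passed; 60 of the 70 features lie within 0.5 of 0 on the log2 scale.

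Of the 70 features 60 lay within 0.5 of 0 on the log2 scale and 1 lay beyond 1, with standard errors between 0.12 and 0.63 and a median of 0.20. From day 4 to day 7 the SETDB1 sgRNA 9 cells gave 0.41 ± 0.15 for MSTC minus strand, -0.23 ± 0.12 for L1PA12_3end minus strand, 0.01 ± 0.14 for L1P1_orf2 plus strand and 0.18 ± 0.18 for HERV-Fc1 plus strand (log2, SE). Of these 4, the change differed between the arms in the main fit for L1PA12_3end alone (SETDB1 minus control -0.63 ± 0.17, SE, edgeR interaction adjusted p = 0.0125). That call was lost in 3 of 8 alternatives. In the same edgeR test the difference did not pass for HERV-Fc1 (0.85 ± 0.27, adjusted p = 0.0509), L1P1_orf2 (0.54 ± 0.20, adjusted p = 0.0923) or MSTC (-0.26 ± 0.22, adjusted p = 0.437, log2, SE). It passed in 3 of 8 alternatives for HERV-Fc1 and in 2 of 8 for L1P1_orf2, among them table totals (1.04 and 0.71).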

How the data were processed

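Stranded total RNA libraries of non-targeting THP-1 cells (3 at day 4, 3 at day 7) were analysed within the fit of all 12 libraries. For each repeat and strand the authors deposited read counts, which are whole numbers with no normalization. The submitters' processing notes list CASAVA 1.8, BWA and HTSeq but assign them no step. Not given in the sources used here were the genome build, the repeat models, how multiply mapping reads were treated and why these 45 elements were chosen. The header of each of the 24 count columns names its sample, and no row lacked an element name.

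edgeR 4.0.16 in R 4.3.3 filtered features with filterByExpr (minimum count 10, minimum total 15) and scaled table totals by TMM; CPM uses these sizes. A quasi-likelihood fit with 4 groups had 8 residual degrees of freedom and a biological coefficient of variation of 11.4%. Standard errors come from the F statistic, and the threshold was an adjusted p of 0.05. Strand shares were tested with each library's strands as 2 columns of equal library size and a library block. limma 3.58.1 and DESeq2 1.42.0 served as alternatives. Scripts were tested on simulated data. Replicates were compared pairwise by a chi-square of their counts over features; every pair within a control group differed beyond sampling noise, so none was merged.

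Members, classes, lists and the naming rule were chosen with earlier results of these data known. The rule named, for levels, the 10 elements with the most counts and the top element of each class; for strand share, the 5 highest and 5 lowest among elements with at least 100 counts; for time, all called features plus the 5 largest changes per direction whose libraries did not overlap; and for strand share with time, called elements plus the 3 largest per direction. Classes were set from element names.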

Additional observations from a re-analysis of the deposited data

Results flagged for a closer look

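The change with time differed between SETDB1 sgRNA 9 and non-targeting cells, by an interaction test in edgeR, for 4 features of 70. HERV3 minus strand was level in the controls (-0.02 ± 0.15) and the difference, SETDB1 minus control, was 1.5 on the log2 scale. LTR4 minus strand changed by 0.25 ± 0.21 in the controls, with a difference of 1.35. ALR minus strand changed by 0.30 ± 0.25 in the controls, with a difference of -1.3, and L1PA12_3end minus strand rose in the controls, with a difference of -0.63 (log2, SE). The last was lost without day 4 replicate 3 or day 7 replicate 1 or 2 of the controls.

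The change in minus strand share differed between the arms for 2 of 39 elements, in a test added after the data were seen. For HERV3 the difference, SETDB1 minus control, was 1.47 in log2 odds (adjusted p = 0.00107 in edgeR). For L1P1_orf2 it was -0.91 (adjusted p = 0.0194 in edgeR), which includes the rise of 0.63 in the controls. The change in strand share within the SETDB1 cells was not tested. The difference for L1P1_orf2 did not pass with limma (adjusted p = 0.255), nor without control day 4 replicate 1 or 3 or day 7 replicate 1, whereas HERV3 passed in each of these.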

How the results depend on the processing

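Baseline strand calls varied least in number: the 34 calls became between 29 and 36 over 10 alternatives. Their direction did depend on the scaling. With each strand scaled to its own total adjusted by a TMM factor, the split moved from 26 minus and 8 plus to the one given above, with more plus than minus. Among the 10 most counted elements and the strand extremes, that scaling turned HUERS-P3b (-0.88), L1P1_5end (-0.18), THE1C (-0.34) and MSTB1 (-0.41) to the plus side. These values are relative to the scaling of each strand. Without single libraries HUERS-P3b ranged from -0.0048 (without day 7 replicate 1) to 0.14.

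Calls for change with time were few and unsteady. The 4 features became 0 without scaling and between 0 and 2 without single libraries. The 3 elements with a changed strand share became 0 with limma and between 0 and 3 without single libraries, and LTR60, never called, ranged from -3.40 to 0.32, the latter without day 4 replicate 1. Summed over strands, the 0 calls became 1 with DESeq2, 2 in the control libraries alone and between 0 and 1 without single libraries. The 4 interaction calls became 9 with table totals and between 3 and 8 (without day 4 replicate 2) without single libraries. The cause of these moves was not tested. The shift of the whole table towards minus lay between 3.24 and 5.37 points without single libraries.

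Whether replicate numbers pair the samples is not stated in the labels, and the main fits did not pair them. Same-numbered day 4 and day 7 controls correlated at 0.16, 0.099 and 0.0071 in their deviations. Pairs with different numbers ranged from -0.30 to 0.20, and not every library correlated best with its own number. Correlations this weak can neither show nor exclude pairing. With the number as a block, 3 features (1 higher, 2 lower), 0 elements by strand share, 0 elements summed over strands and 5 interactions were called. Table counts limit what can be seen for the 12 elements under 100 counts.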
